A study of Mus musculus with 9 samples.

Results

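The 44 genes described here encode the contractile, calcium-handling and energy-supply proteins of skeletal muscle, together with the transcription factors that specify it. They were chosen by name, as rows of the deposited count table whose symbol belonged to a fixed list, and all 44 were found among the 52550 genes of the table. Messenger RNA was sequenced from the dermis of the ears of wild-type C57BL/6 mice aged 8 weeks, which the methods of the study give as male C57BL/6J mice. Every mouse was gavaged for 10 days with 200 µl of liquid, and received cream on the ear during 5 of those days. The labels give gavage once a day, whereas the scheme of the ear model in the study gives more than 1 gavage a day, and which was used is not settled here. In the VAS+H2O group the cream was vaseline and the gavage was water. The IMQ+H2O group had imiquimod cream, which induces a psoriasis-like dermatitis, and water by gavage. The IMQ+XYF group had the same cream, and its gavage was the herbal decoction Xiao-Yin-Fang (XYF) at 23.3 mg/g. Each group held 3 libraries. According to the methods the RNA came from intact dermal sheets of more than 1 mouse, and whether a library pooled mice was not clear. The p-values therefore measure the spread between these libraries.

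Skeletal muscle fibres contract when myosin in the thick filament pulls on actin in the thin filament. The troponin complex on the thin filament gates that movement, and titin, nebulin and the Z-disc hold the filaments in register. Calcium leaves the sarcoplasmic reticulum through the ryanodine receptor to start a contraction and is pumped back by the SERCA ATPases to end it. Fast fibres rely on glycolysis and slow fibres on oxidative metabolism, and each type carries its own versions of myosin, troponin and the calcium pump. The dermis itself is not a muscle tissue, but small striated muscles attach to the mouse ear and move it, and a thin sheet of striated muscle lies beneath much of mouse skin.

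Muscle genes share letters in the DNA before their start sites that muscle transcription factors are known to bind. The MyoD family, of which Myod1, Myog and Myf6 are members of this list, binds E-boxes, and the MEF2 factors and serum response factor bind the MEF2 site and the CArG box. A promoter, from 250 bases before to 50 bases after a RefSeq start site on GRCm38.p6, was given for 33 of the 44 genes. The other 11 were Mylk2, Actn3, Neb, Cacng1, Myoz1, Myot, Tcap, Trdn, Jph1, Myod1 and Myf6. Both strands were searched, and a gene with several start sites counted once if any of its promoters held the letters. The E-box CAGCTG was present in 17 of 33 promoters (51.5%), against 18.3% of the 27025 genes with such a promoter. The general E-box CANNTG, of which CAGCTG is one form, was present in 28 of 33 (84.8%) against 75.0%. The MEF2 site was matched in 8 of 33 (24.2%) against 3.7%, and the CArG box in 3 of 33 (9.09%) against 1.81%. These are matches of letters, and binding was not measured. The stretches before the start sites of 4 members are printed as examples. Each of the 4 holds a MEF2 site, which most of the 33 promoters did not. Whether these letters bear on the levels described below was not tested. Capitals mark CAGCTG, the MEF2 site and the CArG box, and each sequence runs 5′ to 3′ towards the start site. Myh1 and Myh4, which encode the fast myosin heavy chains 2X and 2B, are read on the plus strand at chr11:67199882-67200101 and chr11:67237612-67237811. Klhl41, a scaffold protein of the sarcomere, is read on the plus strand at chr2:69669980-69670119. Pgam2, the muscle phosphoglycerate mutase of glycolysis, is read on the minus strand at chr11:5803797-5803946.
Myh1: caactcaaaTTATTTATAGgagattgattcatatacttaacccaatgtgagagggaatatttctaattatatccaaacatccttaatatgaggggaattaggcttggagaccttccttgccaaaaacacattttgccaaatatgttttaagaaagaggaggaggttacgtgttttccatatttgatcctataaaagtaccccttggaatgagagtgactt
Myh4: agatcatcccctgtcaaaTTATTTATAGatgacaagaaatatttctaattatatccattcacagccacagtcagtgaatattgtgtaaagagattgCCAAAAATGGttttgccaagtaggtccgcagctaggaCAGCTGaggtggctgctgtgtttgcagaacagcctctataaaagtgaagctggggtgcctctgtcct
Klhl41: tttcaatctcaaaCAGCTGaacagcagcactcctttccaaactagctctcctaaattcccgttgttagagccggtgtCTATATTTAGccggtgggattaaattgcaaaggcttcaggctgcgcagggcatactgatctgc
Pgam2: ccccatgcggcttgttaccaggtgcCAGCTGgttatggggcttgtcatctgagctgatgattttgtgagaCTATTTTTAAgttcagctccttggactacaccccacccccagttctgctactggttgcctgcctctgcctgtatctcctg
In these windows Myh1 held a MEF2 site that began 211 bases before the start site, and Myh4 held one 182 bases before it. Myh4 further held a CArG box at 104 bases and CAGCTG at 67 bases before the start. In Klhl41, CAGCTG began at 127 bases and the MEF2 site at 63 bases, and in Pgam2 they began at 125 and 80 bases.

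Libraries held between 28756305 and 79836881 counted reads, and the mitochondrial share ranged from 8.21% to 14.3%. Expression is given as CPM, the count of a gene relative to the reads of its library, with library sizes scaled by TMM, and values are listed in the order of the replicate numbers 1, 2 and 3. Dermal fibroblast markers such as Col1a1 and Dcn were high in every library, with a summed level of 8 markers between 10796 and 26068 CPM. Krt14, a keratin of the basal epidermis and hair follicles, was also present in this labelled dermis, at 864, 1469 and 947 CPM in VAS+H2O, 724, 955 and 757 CPM in IMQ+H2O and 3367, 1064 and 1913 CPM in IMQ+XYF. One library stood apart in epidermal RNA. The 8 epidermis markers summed to 14593 CPM in IMQ+XYF replicate 1 and to between 2128 and 6491 CPM in the other 8 libraries.

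Skeletal muscle RNA was present in every library, but its amount differed widely between libraries of the same group. The 44 genes took 0.363%, 0.576% and 0.111% of the reads of the VAS+H2O libraries. They took 0.539%, 0.269% and 0.533% of the IMQ+H2O reads, and 0.0294%, 0.231% and 0.131% of the IMQ+XYF reads. The highest share was 5.21 times the lowest in VAS+H2O, 2.002 times in IMQ+H2O, 7.88 times in IMQ+XYF and 19.6 times over all 9 libraries. The 95% Wilson interval of the lowest share ran from 0.0290% to 0.0297%, so counting error was small against these differences. All intervals here cover counting error only. The median of the members' SDs within groups was 1.21 on the log2 CPM scale, against 0.318 for all 22430 genes tested.

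The genes varied together. In VAS+H2O, replicate 2 was the highest for 40 of the 44 genes and replicate 3 the lowest for 40. In IMQ+H2O, replicate 2 was the lowest for 39 genes, and the highest values were divided between replicate 1 with 21 genes and replicate 3 with 22. In IMQ+XYF, replicate 1 was the lowest for 41 genes and replicate 2 the highest for 39. IMQ+XYF replicate 1 held the lowest value of all 9 libraries for 40 of the 44. The libraries with the lowest share in VAS+H2O and in IMQ+XYF were also the deepest of the series, with 78781537 and 79836881 reads. In whole tissue, fewer muscle fibres in a sample and less RNA per fibre cannot be told apart.

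**Figure D1:**
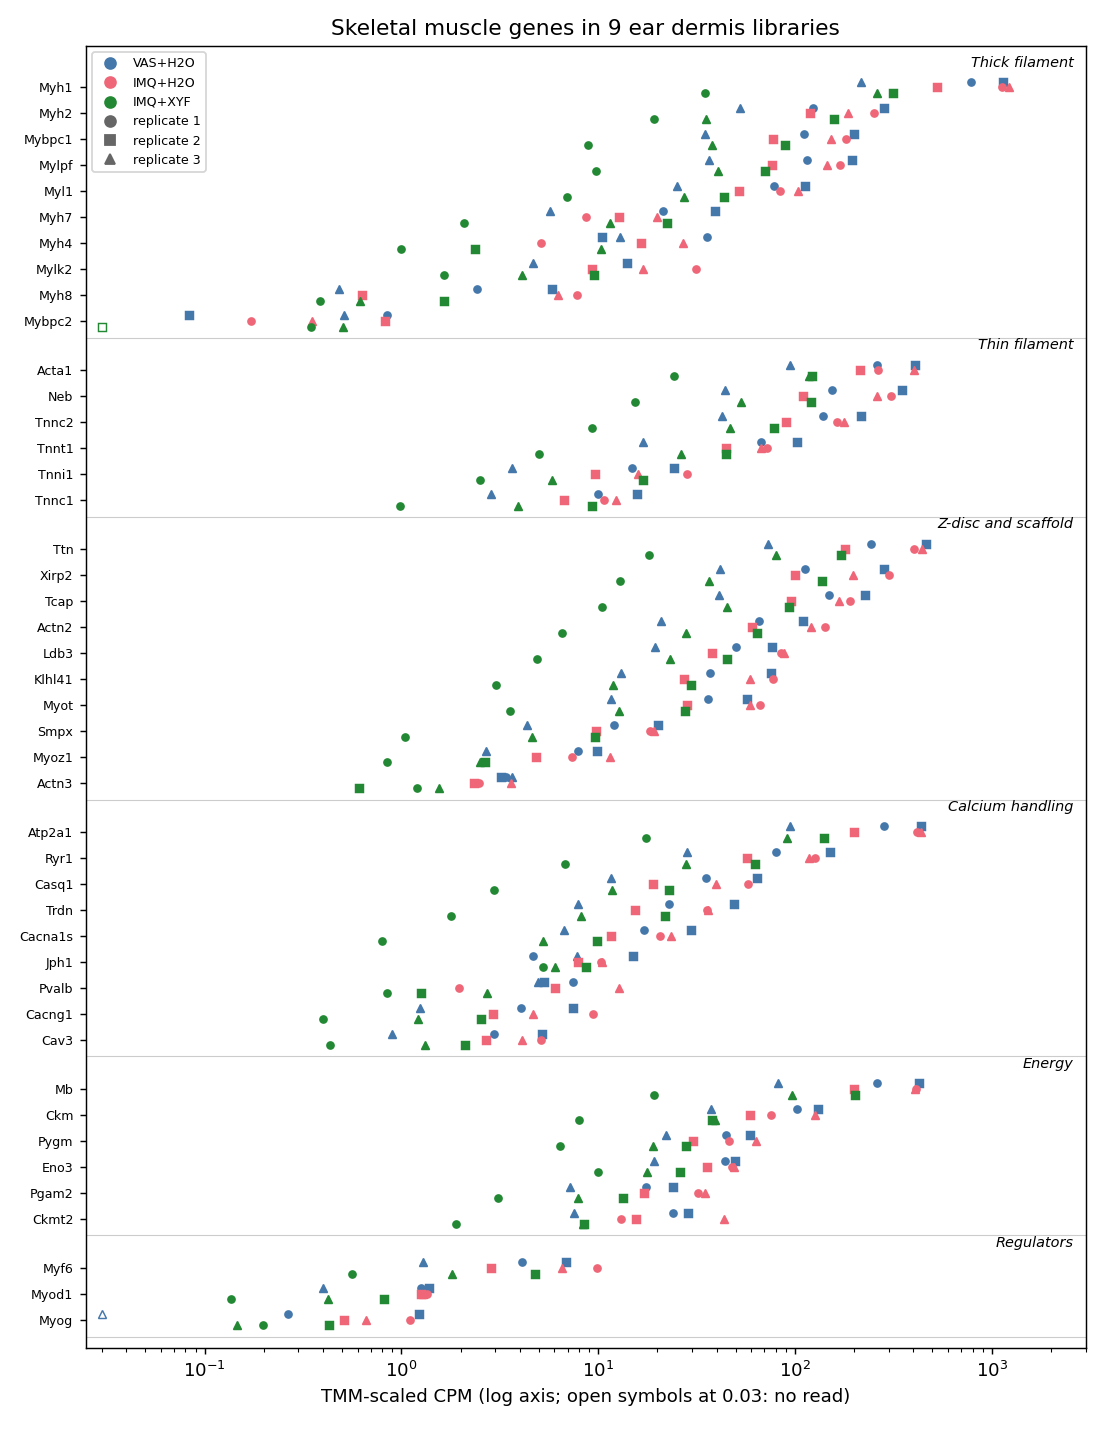
TMM-scaled CPM of the 44 skeletal muscle genes (one row a gene, grouped by role) in the 9 libraries, on a log axis. Colour gives the group and shape the replicate, and open symbols mark a library with no read. IMQ+XYF replicate 1 lies at the far left of most rows, and the other IMQ+XYF libraries lie within the range of VAS+H2O in most rows.

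Compared per kilobase of exon, the abundant members came from every part of the muscle fibre. Myoglobin (Mb), the oxygen store, led with a mean of 157 CPM per kb over the 9 libraries. It was followed by skeletal actin (Acta1) with 138, fast troponin C (Tnnc2) with 134, the titin cap Tcap with 119.7, fast myosin Myh1 with 98.7, the fast regulatory light chain Mylpf with 90.0 and the fast calcium pump Atp2a1 with 67.7 CPM per kb. This is the order of the means, and differences between neighbours within libraries were not tested. At the other end stood Mybpc2, the fast myosin-binding protein C, with 0.112 CPM per kb, and the developmental myosin Myh8 with 0.246.

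The question of what the decoction changed in the imiquimod-treated ear was addressed by IMQ+XYF against IMQ+H2O. All 44 genes passed the filter on low counts, and all 44 had a log2 fold change below 0. Their median was -1.65, a level 0.320 times that of IMQ+H2O, while the median over all tested genes was 0.01 and 49.2% of them lay below 0. No member passed the test of edgeR at an adjusted p of 0.05 and a 2-fold change. The lowest adjusted p was 0.363, and that rule called 0.00892% of all tested genes. At an unadjusted p under 0.05 there were 20 members, all lower, or 45.5%, against 5.39% of all genes. The values of IMQ+XYF lay entirely under those of IMQ+H2O for 22 of the 44 (50%), against 8.74% of all genes. The members share their libraries and varied together, so these counts are not 44 separate observations. DESeq2, run as an alternative, called 4 members lower, namely Actn3 (adjusted p = 0.0235), Myoz1 (adjusted p = 0.0295), Pvalb (adjusted p = 0.0374) and Pgam2 (adjusted p = 0.0496), against 0.206% of all genes.

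The median depended on single libraries in size. It was -1.20 without IMQ+XYF replicate 1, where 43 of 44 genes lay below 0 and 8 had an unadjusted p under 0.05, and -2.34 without IMQ+XYF replicate 2. With the level of cartilage markers as a covariate it was -3.23, with 0 members called.

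**Figure D2:**
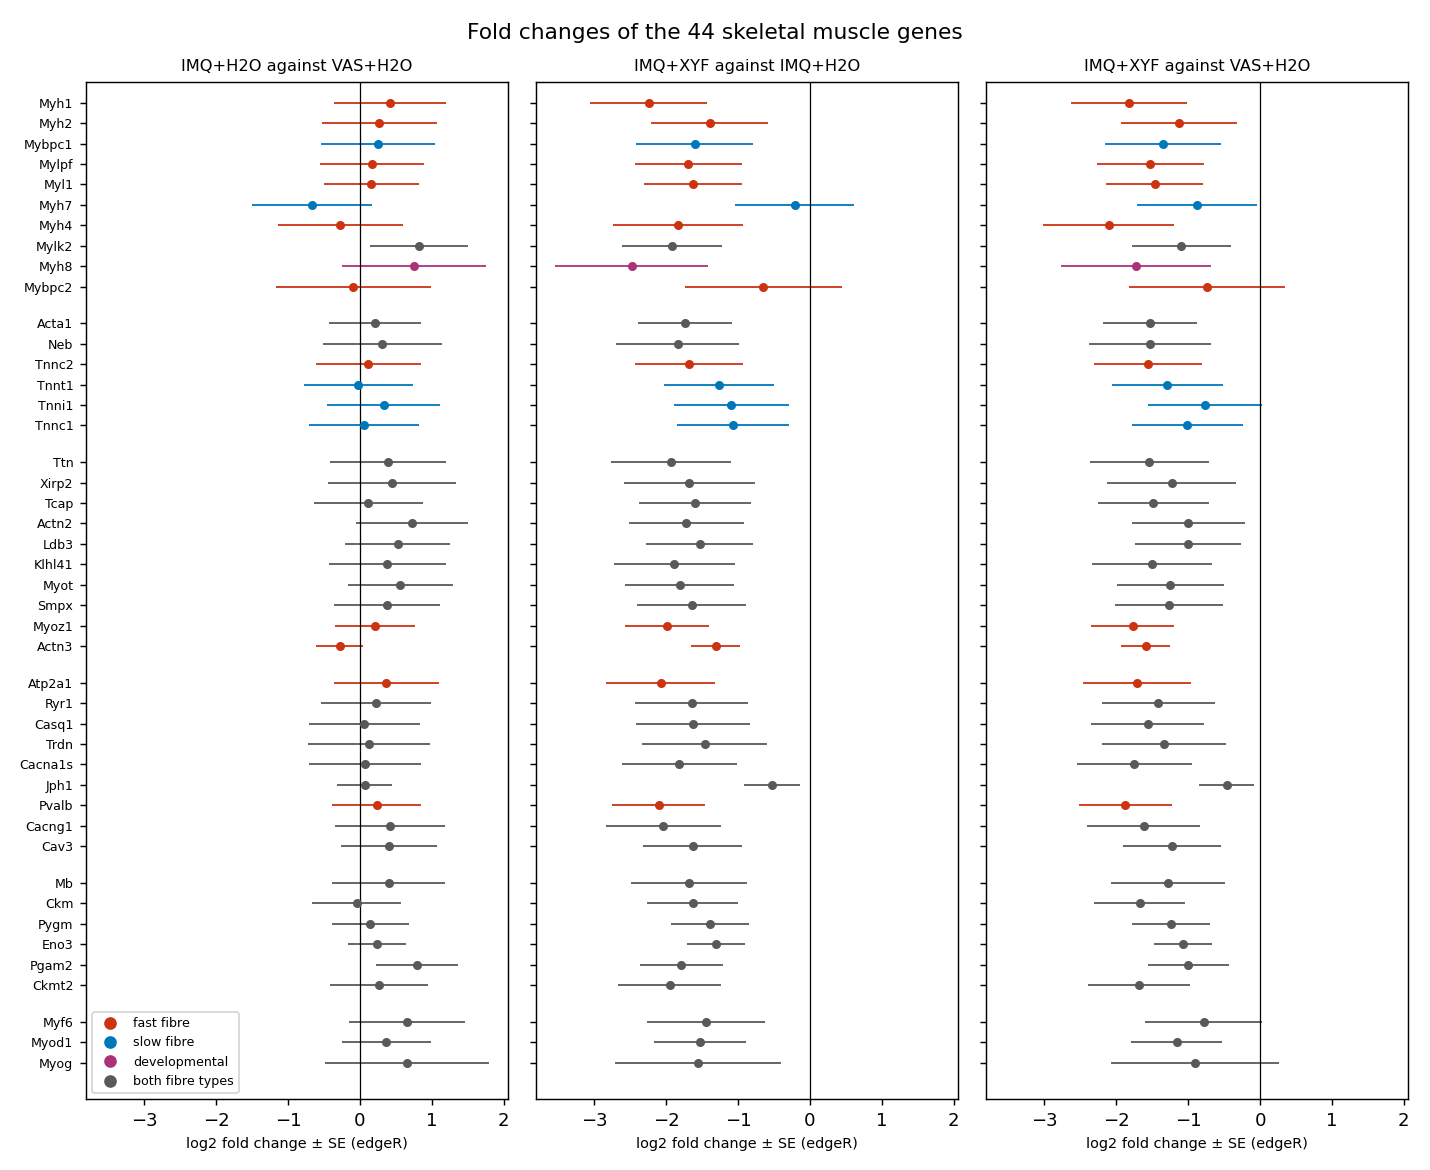
Log2 fold change with its standard error (edgeR) for each of the 44 genes in the 3 comparisons, coloured by fibre class. For IMQ+XYF against IMQ+H2O all 44 points lie below 0, between -2.48 and -0.21, and for IMQ+H2O against VAS+H2O 38 lie above 0, with error bars that mostly cross it.

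Among the genes of the thick filament, 10 in all, the median log2 fold change from IMQ+H2O to IMQ+XYF was -1.66, and 5 had an unadjusted p under 0.05, beside 5.39% of all tested genes that were lower at that p. The adult fast myosins Myh2, Myh1 and Myh4 and the perinatal Myh8 stand next to each other on chromosome 11 in GRCm38. Their sequences are similar, so the division of reads among them is uncertain. Myh1 (ENSMUSG00000056328, chr11:67200052-67224575), the 2X chain of fast fibres, was measured at 787, 1148 and 216 CPM in VAS+H2O, 1127, 526 and 1228 CPM in IMQ+H2O and 35.0, 314 and 260.1 CPM in IMQ+XYF. The IMQ+XYF libraries lay below all 3 IMQ+H2O libraries, but overlapped the VAS+H2O range where replicate 3 was low. Its log2 fold change by XYF, with n = 3 libraries a group as for all genes, was -2.24 ± 0.82 (SE, edgeR adjusted p = 0.381). Myh2 (ENSMUSG00000033196, chr11:67171027-67197517), the 2A chain of fast oxidative fibres, stood at 124, 285 and 52.7 CPM in VAS+H2O, 252, 119.6 and 186 CPM in IMQ+H2O and 19.3, 158 and 35.2 CPM in IMQ+XYF. The groups overlapped, and the change by XYF was -1.39 ± 0.81 (SE, edgeR adjusted p = 0.513). Myh4 (ENSMUSG00000057003, chr11:67238029-67260446), the 2B chain of the fastest fibres, stood at 35.8, 10.5 and 12.9 CPM in VAS+H2O, 5.10, 16.6 and 27.1 CPM in IMQ+H2O and 0.995, 2.38 and 10.4 CPM in IMQ+XYF. It did not follow the order of libraries that Myh1 showed, since VAS+H2O replicate 2 had the most Myh1 and the least Myh4 of its group. Its change by XYF was -1.84 ± 0.91 (SE, edgeR adjusted p = 0.459), and its groups overlapped. Myh7 (ENSMUSG00000053093, chr14:54970684-54994626), the slow chain that heart muscle also uses, stood at 21.4, 39.1 and 5.72 CPM in VAS+H2O, 8.68, 12.8 and 20.0 CPM in IMQ+H2O and 2.08, 22.4 and 11.5 CPM in IMQ+XYF. The IMQ+XYF values lay across the IMQ+H2O range, and the change by XYF was -0.21 ± 0.83 (SE, edgeR adjusted p = 0.937), the closest to 0 of the 44.

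The remaining thick-filament genes were the light chains Mylpf and Myl1, the myosin light chain kinase Mylk2, the binding proteins Mybpc1 and Mybpc2, and Myh8. Their log2 fold changes by XYF ran from -2.48 for Myh8 to -0.65 for Mybpc2. Mybpc2 had 0 reads in IMQ+XYF replicate 2, below a floor of 3 counts or 0.0610 CPM, and stayed under 1 CPM in all libraries.

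The 6 thin-filament genes had a median of -1.48 by XYF. Acta1 (ENSMUSG00000031972, chr8:123891769-123894751), the actin of adult skeletal muscle, was measured at 262, 406 and 94.2 CPM in VAS+H2O, 264, 215 and 405 CPM in IMQ+H2O and 24.3, 122 and 118 CPM in IMQ+XYF. All IMQ+XYF values lay under those of IMQ+H2O, and VAS+H2O replicate 3 lay under the 2 higher IMQ+XYF values. The log2 fold change by XYF was -1.74 ± 0.66 (SE, edgeR adjusted p = 0.386). Neb (ENSMUSG00000026950, chr2:52136647-52378474) encodes nebulin, which sets the length of the thin filament, and stood at 154, 352 and 44.1 CPM in VAS+H2O, 307, 111 and 262 CPM in IMQ+H2O and 15.4, 121 and 53.2 CPM in IMQ+XYF. IMQ+XYF replicate 2 lay above the lowest IMQ+H2O library, and the change by XYF was -1.84 ± 0.85 (SE, edgeR adjusted p = 0.438). Tnnc2 (ENSMUSG00000017300, chr2:164777161-164779967), the calcium sensor of fast fibres, stood at 138, 217 and 42.7 CPM in VAS+H2O, 164, 90.0 and 178 CPM in IMQ+H2O and 9.36, 78.7 and 46.7 CPM in IMQ+XYF. The IMQ+XYF values lay under those of IMQ+H2O, with a change of -1.68 ± 0.75 (SE, edgeR adjusted p = 0.429). Tnnc1 (ENSMUSG00000091898, chr14:31208312-31211729), its slow counterpart, stood at 9.97, 15.8 and 2.87 CPM in VAS+H2O, 10.7, 6.67 and 12.3 CPM in IMQ+H2O and 0.983, 9.34 and 3.93 CPM in IMQ+XYF. Here the groups overlapped, and the change was -1.07 ± 0.78 (SE, edgeR adjusted p = 0.594). The slow troponins Tnni1 and Tnnt1 had changes of -1.09 and -1.27.

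Genes of the Z-disc and the sarcomeric scaffold, 10 in number, had a median of -1.70 by XYF. Ttn (ENSMUSG00000051747, chr2:76703980-76982547) encodes titin, the molecular spring of the sarcomere, and was measured at 244, 464 and 73.2 CPM in VAS+H2O, 404, 181 and 441 CPM in IMQ+H2O and 18.1, 171 and 79.9 CPM in IMQ+XYF. The XYF-treated libraries all lay under those of IMQ+H2O, and the log2 fold change was -1.93 ± 0.83 (SE, edgeR adjusted p = 0.421). Xirp2 (ENSMUSG00000027022, chr2:67446002-67526614), an actin-binding protein of the attachment sites of muscle fibres, stood at 113, 284 and 41.5 CPM in VAS+H2O, 301, 99.7 and 197 CPM in IMQ+H2O and 12.9, 137 and 36.8 CPM in IMQ+XYF. Replicate 2 of IMQ+XYF exceeded the lowest IMQ+H2O library, and the change was -1.68 ± 0.91 (SE, edgeR adjusted p = 0.491). Myoz1 (ENSMUSG00000068697, chr14:20649107-20656540) and Actn3 (ENSMUSG00000006457, chr19:4861216-4877909) are Z-disc proteins of fast fibres, and both are described because DESeq2 called them, a choice made after their values were seen. Myoz1 stood at 7.91, 9.89 and 2.69 CPM in VAS+H2O, 7.37, 4.85 and 11.4 CPM in IMQ+H2O and 0.846, 2.66 and 2.50 CPM in IMQ+XYF, so the IMQ+XYF values lay under both other groups. Its change by XYF was -1.98 ± 0.58 (SE, edgeR adjusted p = 0.364). Actn3, the fast alpha-actinin, stood at 3.40, 3.20 and 3.64 CPM in VAS+H2O, 2.48, 2.35 and 3.59 CPM in IMQ+H2O and 1.21, 0.610 and 1.56 CPM in IMQ+XYF. Again every IMQ+XYF value lay under the other 6, and the change was -1.31 ± 0.34 (SE, edgeR adjusted p = 0.363). Actn3 also had the smallest spread within groups of the 44, with an SD of 0.435 on the log2 CPM scale. The other 6 scaffold genes, Tcap, Actn2, Ldb3, Klhl41, Myot and Smpx, had changes between -1.89 and -1.53.

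The 9 calcium-handling genes had a median of -1.64 by XYF. Atp2a1 (ENSMUSG00000030730, chr7:126445858-126463108) encodes SERCA1, the calcium pump of fast fibres, and was measured at 283, 439 and 94.3 CPM in VAS+H2O, 417, 200.1 and 436 CPM in IMQ+H2O and 17.5, 141 and 90.7 CPM in IMQ+XYF. Values in IMQ+XYF lay under those of IMQ+H2O, and the log2 fold change was -2.08 ± 0.76 (SE, edgeR adjusted p = 0.381). Ryr1 (ENSMUSG00000030592, chr7:29003344-29125179), the calcium release channel, stood at 80.2, 150.4 and 28.4 CPM in VAS+H2O, 127, 57.4 and 119 CPM in IMQ+H2O and 6.82, 62.5 and 27.8 CPM in IMQ+XYF. IMQ+XYF replicate 2 lay between the IMQ+H2O libraries, and the change was -1.64 ± 0.79 (SE, edgeR adjusted p = 0.450). Pvalb (ENSMUSG00000005716, chr15:78191114-78206400), parvalbumin, buffers calcium in fast fibres and was among those DESeq2 called. It stood at 7.42, 5.34 and 4.94 CPM in VAS+H2O, 1.96, 6.02 and 12.7 CPM in IMQ+H2O and 0.846, 1.26 and 2.73 CPM in IMQ+XYF, with the IMQ+XYF values under all of VAS+H2O but not under the lowest IMQ+H2O value. Its change by XYF was -2.11 ± 0.65 (SE, edgeR adjusted p = 0.364). The voltage sensor subunits Cacna1s and Cacng1, the reticulum proteins Casq1 and Trdn, and caveolin Cav3 had changes between -2.04 and -1.46. Jph1, which ties the reticulum to the surface membrane, differed least among the libraries, with a highest value 3.23 times its lowest, and its change was -0.53 ± 0.39 (SE, edgeR adjusted p = 0.596).

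The 6 energy genes had a median of -1.65 by XYF, and 5 of them lay entirely under IMQ+H2O, beside 8.74% of all tested genes. Mb (ENSMUSG00000018893, chr15:77015487-77050670) was measured at 261, 429 and 82.2 CPM in VAS+H2O, 414, 199.6 and 406 CPM in IMQ+H2O and 19.2, 203 and 96.4 CPM in IMQ+XYF. It was the exception, since IMQ+XYF replicate 2 passed the lowest IMQ+H2O value, and its log2 fold change was -1.68 ± 0.81 (SE, edgeR adjusted p = 0.450). Ckm (ENSMUSG00000030399, chr7:19404776-19422841), the cytosolic creatine kinase that regenerates ATP, stood at 102, 131 and 37.4 CPM in VAS+H2O, 75.9, 59.5 and 127 CPM in IMQ+H2O and 7.98, 37.8 and 39.2 CPM in IMQ+XYF. All IMQ+XYF values lay under IMQ+H2O, and the change was -1.63 ± 0.63 (SE, edgeR adjusted p = 0.395). Pgam2 (ENSMUSG00000020475, chr11:5801640-5803733), whose promoter is printed above, stood at 17.5, 24.0 and 7.18 CPM in VAS+H2O, 32.2, 17.2 and 34.9 CPM in IMQ+H2O and 3.11, 13.4 and 7.87 CPM in IMQ+XYF. It too lay under IMQ+H2O in every IMQ+XYF library, with a change of -1.79 ± 0.58 (SE, edgeR adjusted p = 0.364). The glycogen phosphorylase Pygm, the muscle enolase Eno3 and the mitochondrial creatine kinase Ckmt2 had changes of -1.39, -1.31 and -1.95.

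The 3 transcription factors were at low levels. Myf6 (ENSMUSG00000035923, chr10:107492853-107494737), which is kept on in mature fibres, stood at 4.12, 6.86 and 1.29 CPM in VAS+H2O, 9.85, 2.86 and 6.57 CPM in IMQ+H2O and 0.560, 4.78 and 1.80 CPM in IMQ+XYF. The groups overlapped, and the log2 fold change by XYF was -1.44 ± 0.82 (SE, edgeR adjusted p = 0.506). Myod1 (ENSMUSG00000009471, chr7:46376474-46379099), the determination factor, stood at 1.26, 1.39 and 0.402 CPM in VAS+H2O, 1.34, 1.26 and 1.29 CPM in IMQ+H2O and 0.137, 0.814 and 0.422 CPM in IMQ+XYF. Its IMQ+XYF values lay under those of IMQ+H2O, with a change of -1.53 ± 0.64 (SE, edgeR adjusted p = 0.408). Myog (ENSMUSG00000026459, chr1:134289989-134292548), which drives differentiation, stood at 0.267, 1.22 and 0 CPM in VAS+H2O, 1.10, 0.509 and 0.663 CPM in IMQ+H2O and 0.199, 0.427 and 0.146 CPM in IMQ+XYF, and the 0 was below a floor of 0.0402 CPM for 3 counts. The IMQ+XYF values lay under those of IMQ+H2O, with a change of -1.56 ± 1.16 (SE, edgeR adjusted p = 0.600).

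What imiquimod itself changed was addressed by IMQ+H2O against VAS+H2O. The groups overlapped for all 44 genes, whereas 31.5% of all tested genes had groups that did not overlap. The median log2 fold change was 0.26, with 38 genes above 0 and 6 below, beside a median of -0.02 over all tested genes, of which 52.3% lay below 0. edgeR called 0 members (lowest adjusted p = 0.449), against 0.994% of all tested genes, and 0 had an unadjusted p under 0.05, against 20.9%. DESeq2 also called 0, against 2.63%. The log2 fold change was 0.42 for Myh1, 0.21 for Acta1, 0.40 for Mb and -0.04 for Ckm, each less in size than its standard error. The most positive were Mylk2 at 0.82 ± 0.68 (SE, edgeR adjusted p = 0.519) and Pgam2 at 0.80 ± 0.56 (SE, edgeR adjusted p = 0.449), and the most negative was Myh7 at -0.67 ± 0.83 (SE, edgeR adjusted p = 0.681). The direction of the median rested on single libraries, since it was -0.11 without VAS+H2O replicate 3 and 0.89 without VAS+H2O replicate 2. With the cartilage covariate it was 1.91, again with 0 members called. The cartilage level, from 0.326 to 1.33 in VAS+H2O and from -1.56 to -0.818 in IMQ+H2O, did not overlap between these groups either.

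IMQ+XYF was also set against VAS+H2O, in the same fit of all 9 libraries. The IMQ+H2O libraries therefore entered the scaling and the spread behind its p-values. All 44 log2 fold changes were below 0 here too, with a median of -1.34, beside -0.02 for all tested genes, of which 52.7% lay below 0. Both comparisons use the same IMQ+XYF libraries, so they are not separate evidence. edgeR called 0 members, against 1.2% of all tested genes, and 10 (22.7%) had an unadjusted p under 0.05 and were lower, against 8.76%. In an edgeR fit of only the 2 groups compared, 0 members were called, against 0.152% of the genes tested there. In that fit 5 members had an unadjusted p under 0.05, and the lowest adjusted p was 0.130. Groups did not overlap for 4 genes (9.09%), near the 10.3% of all genes that were lower without overlap. These 4 were Myh4, Myoz1, Actn3 and Pvalb, and at that share they are not read as a result about the members. Actn3 stood closest to the threshold with -1.59 ± 0.34 (SE, edgeR adjusted p = 0.0531), and its adjusted p ranged from 0.000429 to 0.156 over the alternatives. It was called by edgeR without IMQ+XYF replicate 2, at an adjusted p of 0.0340. DESeq2 called 4 members lower, namely Actn3, Myoz1, Pvalb and Ckm, against 0.871% of all genes. Leaving out VAS+H2O replicate 2 gave a median of -0.79, and it was -1.96 without IMQ+XYF replicate 2.

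Fibre classes were compared next, with 11 genes of fast fibres and 5 of slow fibres. The median log2 fold change by XYF was -1.69 for the fast genes and -1.09 for the slow genes, a difference of -0.60. Of the fast genes 7 had an unadjusted p under 0.05 and 7 lay entirely under IMQ+H2O, and of the slow genes 0 did either, beside 5.39% and 8.74% of all tested genes. With 5 slow genes, a count of 0 is near what those shares over all genes would give. The difference was given no test, and it was -0.32 with the cartilage covariate, whose values did not overlap between IMQ+H2O and IMQ+XYF. It shrank to -0.23 when IMQ+H2O replicate 3 was left out, and likewise to -0.23 when IMQ+XYF replicate 2 was left out. Shares within a gene family divide out the total amount of muscle RNA in a library. Tnnc1 made up 6.72%, 6.81% and 6.30% of the reads of Tnnc1 and Tnnc2 in VAS+H2O. It made up 6.12%, 6.90% and 6.48% in IMQ+H2O, and 9.51%, 10.6% and 7.77% in IMQ+XYF. Every IMQ+XYF share lay above the other 6. The counting interval of the lowest of them, 6.88% to 8.76%, overlapped that of the highest IMQ+H2O share, 6.16% to 7.73%.

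Among the myosins, the share of Myh7 was also highest in IMQ+XYF. Its share of the 5 heavy chains Myh1, Myh2, Myh4, Myh7 and Myh8, each taken per kilobase, was 1.65, 1.99 and 1.50% in VAS+H2O, 0.468, 1.43 and 1.02% in IMQ+H2O and 2.79, 3.48 and 2.74% in IMQ+XYF. The groups did not overlap in any pairing of IMQ+XYF with the others, and the IMQ+H2O shares lay lowest. Myh1 held most of the total of these 5 in every library, between 63.7% and 85.3%. The embryonic chain Myh3, described at the end, was left out of that total. Myh2 took 11.6, 17.5 and 16.7% in VAS+H2O, 16.4, 16.1 and 11.5% in IMQ+H2O and 31.3, 29.6 and 10.1% in IMQ+XYF, so replicates 1 and 2 of IMQ+XYF were high and replicate 3 was not.

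The other troponin pairs did not separate IMQ+XYF from both other groups. Tnni1 made up 12.7%, 12.9% and 10.5% of the reads of Tnni1 and the fast Tnni2 in VAS+H2O, 16.2%, 11.8% and 9.58% in IMQ+H2O, and 21.3%, 20.1% and 13.9% in IMQ+XYF. Every IMQ+XYF share of Tnni1 lay above those of VAS+H2O, but the lowest lay under the highest of IMQ+H2O. The counting interval of that lowest share, 12.6% to 15.3%, also overlapped that of the highest VAS+H2O share, 12.1% to 13.7%. Tnnt1 made up 26.2%, 27.8% and 22.3% of the reads of Tnnt1 and the fast Tnnt3 in VAS+H2O, 25.2%, 25.0% and 19.2% in IMQ+H2O, and 21.6%, 29.9% and 27.6% in IMQ+XYF. These ranges overlapped throughout. The shares are descriptions of 3 libraries a group and were not tested.

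**Figure D3:**
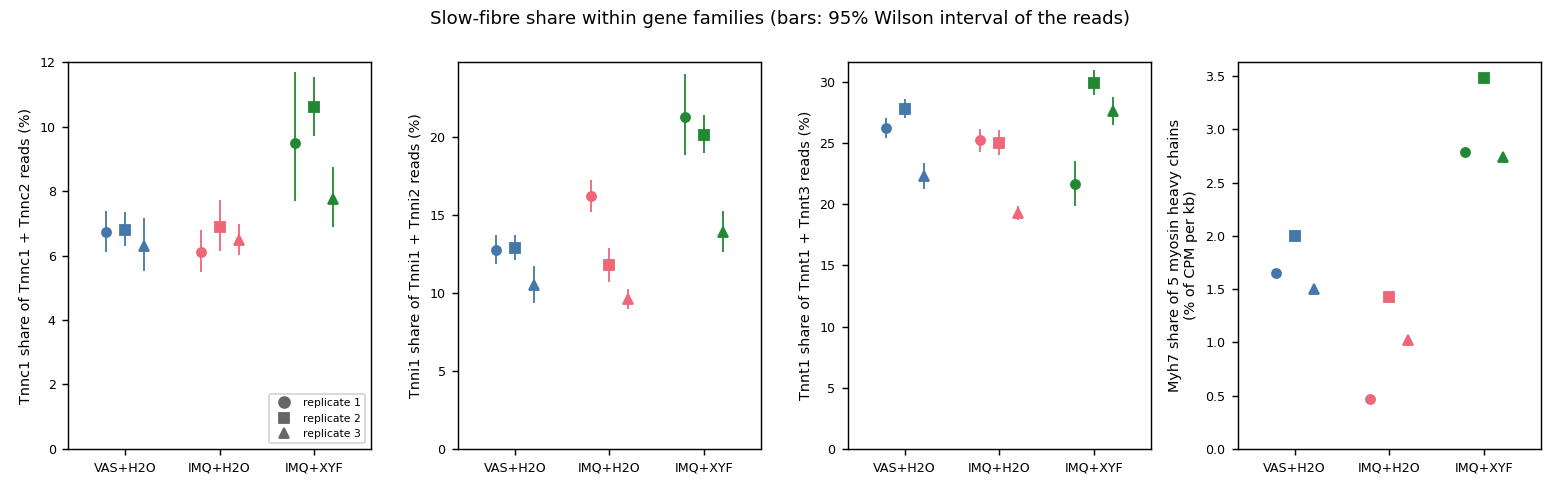
Share of the slow-fibre gene in 3 troponin pairs (% of the reads of the pair, bars: 95% Wilson interval) and share of Myh7 among 5 myosin heavy chains (% of CPM per kb), one point a library. The IMQ+XYF libraries lie above the other 6 for Tnnc1 and Myh7. For Tnni1 they lie above VAS+H2O and overlap IMQ+H2O, and for Tnnt1 they overlap both other groups.

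The genes of the fast class did not all follow Myh1. Relative to Myh1, Atp2a1 varied by a factor of 1.43 and Tnnc2 by 1.84 over the 9 libraries, whereas Myh4 varied by 13.2, Pvalb by 13.9 and Actn3 by 17.7. The 5 genes Myh4, Mybpc2, Actn3, Myoz1 and Pvalb, of the 10 compared, had their lowest level relative to Myh1 in the same libraries, namely VAS+H2O replicate 2, IMQ+H2O replicate 1 and IMQ+XYF replicate 2. Per 100 CPM of Myh1, Myh4 stood at 4.54, 0.913 and 5.96 in VAS+H2O, 0.452, 3.16 and 2.21 in IMQ+H2O and 2.84, 0.758 and 3.98 in IMQ+XYF. This grouping was noticed in the values and is a description, and all these ratios share the Myh1 values.

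Further muscle genes, 68 in all, were listed by role beside the members, and 67 were tested. edgeR called 0 of the 67 by imiquimod, by XYF or in IMQ+XYF against VAS+H2O. By XYF their median log2 fold change was -1.14, with 64 of 67 below 0, beside 49.2% of all tested genes. At an unadjusted p under 0.05, 21 were lower, beside 5.39% of all tested genes, and 1 had a higher value. This was Mstn, myostatin, an inhibitor of muscle growth, with 1.42 ± 0.53 (SE, edgeR adjusted p = 0.384), named after its value was seen. The 3 with the highest mean level are also used outside muscle. Aldoa, a glycolytic aldolase, stood at 451, 531 and 436 CPM in VAS+H2O, 522, 516 and 559 CPM in IMQ+H2O and 481, 469 and 496 CPM in IMQ+XYF. Atp2a2, the SERCA2 pump of slow fibres and many other cells, stood at 324, 428 and 289.7 CPM in VAS+H2O, 372, 368 and 394 CPM in IMQ+H2O and 338, 351 and 367 CPM in IMQ+XYF, and Ldha, lactate dehydrogenase A, at 237, 304 and 237 CPM in VAS+H2O, 303, 360.2 and 397 CPM in IMQ+H2O and 437, 336 and 466 CPM in IMQ+XYF. Their changes by XYF were -0.14, -0.10 and 0.22, against a median of -1.65 for the members.

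Markers of other tissues were measured in the same libraries. The cardiac markers Myl7 and Nppa were at or near 0, with Myl7 read in 1 of 9 libraries and Nppa at most 0.461 CPM. The 8 cardiac markers summed to between 14.4 and 27.8 CPM, so others of them were read. In IMQ+XYF against VAS+H2O, 6 of the 7 tested lay below 0, beside 52.7% of all tested genes. The other was called higher by edgeR, with a log2 fold change of 4.25, beside 1.2% of all tested genes called. Pax7, a marker of satellite cells, lay between 0.0871 and 1.72 CPM. The summed CPM of smooth muscle markers was 571, 614 and 930.0 in VAS+H2O, 913, 1083 and 1191 in IMQ+H2O and 597, 507 and 917 in IMQ+XYF. By XYF 10 of 10 lay below 0, beside 49.2% of all tested genes, with a median log2 fold change of -0.81. Of them 4 were lower at an unadjusted p under 0.05 (edgeR), beside 5.39% of all tested genes. Nerve and Schwann cell markers also lay below 0 for 10 of 10, with a median of -0.61. The summed CPM of cartilage markers was 4231, 1906 and 2149 in VAS+H2O, 996, 561 and 865 in IMQ+H2O and 1164, 3163 and 1615 in IMQ+XYF. By imiquimod 12 of 12 tested lay below 0, beside 52.3% of all tested genes, with a median of -1.83. Of these 3 were called by edgeR, beside 0.994% of all tested genes. By XYF 12 of 12 lay above 0, with a median of 1.47. Epidermis markers lay above 0 by XYF for 7 of 8, with a median of 1.48, and their level was highest in IMQ+XYF replicate 1, the library with the least muscle RNA. The part of these tissues and of depth in the muscle values was not tested.

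**Figure D4:**
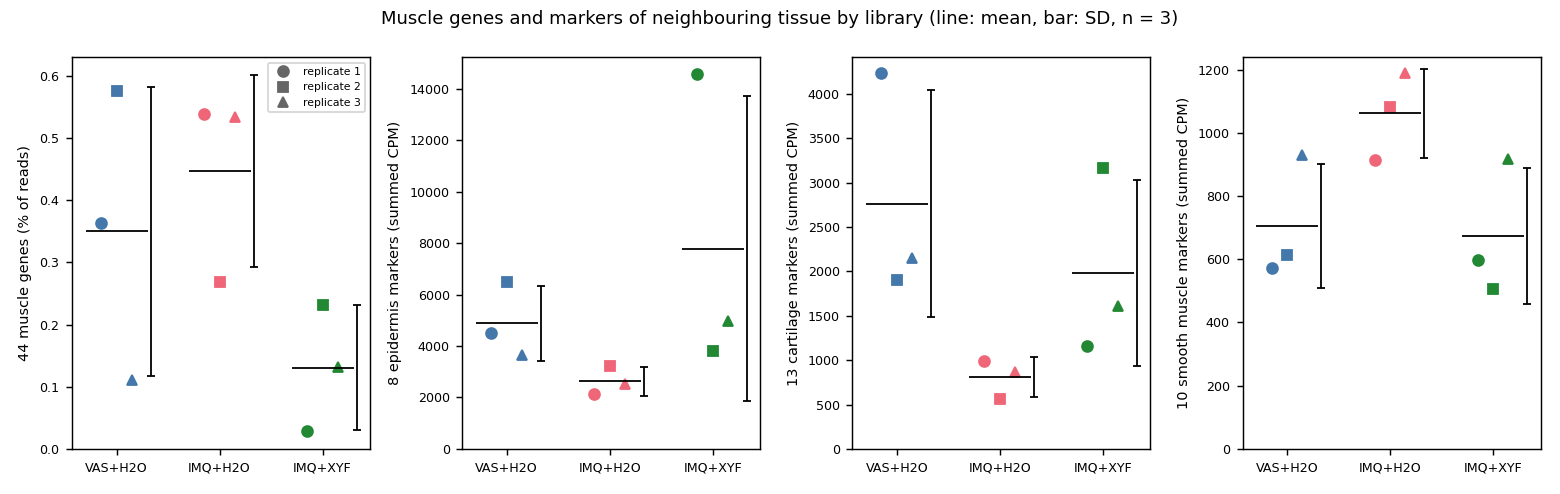
Share of reads in the 44 muscle genes (%) and summed CPM of epidermis, cartilage and smooth muscle markers, one point a library, with the mean as a line and the SD (n = 3) as a bar. IMQ+XYF replicate 1 has the lowest muscle share, 0.0294%, and the highest epidermis sum, 14593 CPM.

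Several members overlap other annotated genes, and whether the strand was used in counting was not stated. Tnnc2, with 0.8 kb of exon in all, shares 592 exonic bases with Ube2c, a cell-cycle gene on the other strand. Both the level of Tnnc2 per kilobase and the Tnnc1 share of the pair used these Tnnc2 counts. Atp2a1 shares 763 exonic bases with Rabep2. Mb shares 64 with Apol6 and 412 with the antisense Gm49540. Myh1, Myh2, Myh7, Neb, Ttn, Xirp2, Ryr1 and Ckm overlap antisense transcripts, as do Casq1, Ckmt2, Jph1 and Cacna1s, the last by 1309 exonic bases. Mybpc1 and Mybpc2 overlap other transcripts on the other strand. Reads of such pairs could not be told apart without strand, while Acta1, Tnnc1, Myh4, Myoz1, Actn3, Pvalb, Pgam2 and the 3 transcription factors overlap no other exon.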

How the data were processed

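The deposited table gave whole-number counts of reads per Ensembl gene, with no normalization by the authors. Per the methods and the submitters' processing notes, reads were aligned with STAR 2.5 to GRCm38. The counting tool and its use of the strand and of reads with several alignments were not given in the sources used here. The labels call the libraries strand-specific, while the kit named in the methods does not mark strand. Genes were filtered with filterByExpr (22430 of 52550 kept), scaled by TMM and tested in 1 quasi-likelihood fit of all 9 libraries with edgeR 4.0.16 (R 4.3.3). A call needed a Benjamini-Hochberg adjusted p of 0.05 or lower and an absolute log2 fold change of 1 or higher. Standard errors were derived from the fold change and the F statistic of each test. The script was tested on simulated data. Coordinates and exon lengths came from GENCODE vM21. DESeq2 1.42.0, other scaling, filters, covariates and single libraries left out were alternatives.

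The members, lists and tests were chosen with earlier results of these data known. Values in every library were given for the 2 members of each role with the highest mean CPM, for Myh1, Myh2, Myh4, Myh7, Tnnc1 and Tnnc2, for any member called and for Myod1, Myog and Myf6. Of the other muscle genes, the rule named those called, of which edgeR gave 0, and the 3 with the highest mean. Mstn and Myh3 were added after their values were seen. Of 14 cartilage markers, 13 were found.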

Additional observations from a re-analysis of the deposited data

How the results depend on the processing

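Another scaling, no filter on low counts, a fit of only the groups compared and no limit on the fold change left 0 members called in each comparison, and moved the medians by less than the spread between libraries. The Wald test of DESeq2 called 0 members by imiquimod, 4 by XYF and 4 in IMQ+XYF against VAS+H2O. Adding the cartilage marker level as a covariate gave a members' median log2 fold change of 1.91 by imiquimod and -3.23 by XYF. The cause was not tested, and in both comparisons the cartilage level did not overlap between the groups. Leaving out 1 library at a time gave medians from -0.11 to 0.89 by imiquimod, from -2.34 to -1.20 by XYF, and from -1.96 to -0.79 in IMQ+XYF against VAS+H2O. It gave 0 members called by imiquimod and by XYF, and between 0 and 1 in IMQ+XYF against VAS+H2O. The fast minus slow difference ran from -0.76 to -0.23.

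The replicate numbers are shared by the groups, but the deviations of same-numbered libraries correlated across genes between -0.18 and 0.12, and 1 of 9 libraries correlated best with its own number, so the numbers were not taken as pairs. With the replicate number as a block, 0 members were called in each comparison, and the medians were 0.56 by imiquimod, -1.99 by XYF and -1.41 in IMQ+XYF against VAS+H2O. Members at an unadjusted p under 0.05 numbered 0, 26 and 7. The fast minus slow difference was -0.56 with the block.

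The members near 0 reads were Mybpc2 and Myog, and the floor of 3 counts lay between 0.0373 and 0.103 CPM. Mybpc2 had 0 reads in IMQ+XYF replicate 2 and Myog in VAS+H2O replicate 3, libraries of 48495685 and 78781537 reads. The library with the fewest reads, IMQ+H2O replicate 1 with 28756305, held 5 reads of Mybpc2 and 32 of Myog. The part of depth in these low counts was not tested.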

Other observations

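Among the further muscle genes, embryonic myosin Myh3 was more abundant than the other developmental chain, a point noticed after its values were seen. Myh3 stood at 89.3, 206 and 21.1 CPM in VAS+H2O, 91.9, 41.0 and 78.3 CPM in IMQ+H2O and 7.49, 94.9 and 34.9 CPM in IMQ+XYF, while the perinatal Myh8 stood at 2.43, 5.84 and 0.482 CPM in VAS+H2O, 7.78, 0.631 and 6.22 CPM in IMQ+H2O and 0.386, 1.65 and 0.617 CPM in IMQ+XYF. Per kilobase of exon, Myh3 had a mean of 12.2 CPM over the 9 libraries, above the 1.85 CPM of the slow chain Myh7 and under the 19.2 CPM of Myh2. Its log2 fold change by XYF was -0.62 ± 0.92 (SE, edgeR adjusted p = 0.810), and by imiquimod it was -0.58 ± 0.92 (SE, edgeR adjusted p = 0.750). Its highest level was in VAS+H2O replicate 2 and its lowest in IMQ+XYF replicate 1, and IMQ+XYF replicate 2 lay above all 3 IMQ+H2O libraries. The myosin heavy chains are similar in sequence, so part of these reads could belong to another chain, which was not tested.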
